A study of Mus musculus with 16 samples.

Results

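The translation initiation and elongation factors were chosen by symbol: protein-coding mouse genes whose names begin with Eif and a digit from 1 to 6 or with Eef and 1 or 2, leaving out the Eif2ak kinases and the sex-linked Eif2s3x and Eif2s3y. The reference annotation held 62 such genes, 61 had a row among the 48795 genes of the count table, and 59 had enough counts to be tested. Eef1akmt4 was the member without a row. Eif4e1b, an eIF4E relative known from the oocyte, had no read in any library, and Eef1akmt3, a lysine methyltransferase of eEF1A, had 34 counts over all 16 libraries. Both were left out of the tests.

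RNA was collected from the striatum of CAG-Cas9-EGFP mice, which express the Cas9 nuclease widely. At 6 to 8 weeks of age the central striatum of both sides received AAV2/5 viruses that carried, under the astrocyte promoter GfaABC1D, the HA-tagged ribosomal protein Rpl22, together with guide RNAs against Crym (3 guides, Crym KO) or against EGFP (Control, labelled WT), and tissue was collected at 10 to 12 weeks. Crym codes for μ-crystallin, which binds thyroid hormone in the cytosol. An antibody against the HA tag pulled down tagged ribosomes with their RNA (IP, n = 4 mice per genotype), and 20% of the cleared lysate of the same mouse was kept as Input, which holds RNA of every cell type and of uninfected astrocytes. All mice of both groups therefore carried Cas9, a guide RNA virus and the tagged ribosome, and guides act only in the cells that took up the virus. By their Xist and Ddx3y reads, mice 1 and 2 of each genotype were females and mice 3 and 4 males.

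Initiation of translation runs through a fixed order of factors. eIF2 carries the initiator tRNA to the small ribosomal subunit and is recharged with GTP by eIF2B, eIF1, eIF1A and eIF5 watch over the search for the start codon, and eIF3 is the large scaffold on which they assemble. The messenger is brought in by eIF4F, made of the cap-binding protein eIF4E, the scaffold eIF4G and the helicase eIF4A, while 4E-binding proteins (Eif4ebp genes) hold eIF4E back. In elongation eEF1A delivers aminoacyl-tRNA, eEF1B reloads eEF1A with GTP, eEF2 moves the ribosome along and eIF5A helps at difficult peptide bonds. Every cell needs these proteins, although Eef1a2 is known as the form of eEF1A of neurons and muscle.

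Total counts were 39421209 to 62596661 per library. Crym fell in Crym KO IP to 34.9% of its Control IP level (log2 change -1.52 ± 0.16 (SE), limma-voom, adjusted p = 0.000514), and Rpl22, whose reads can come from the tagged and from the natural gene, was 191% of Control (0.93 ± 0.12, adjusted p = 0.00367), at 280 to 350.3 CPM in Control IP against 496 to 714 CPM in Crym KO IP. CPM are counts scaled to library sizes of 1000000 after correction by the TMM method, and all adjusted p-values are Benjamini-Hochberg values over all 20645 genes tested. Astrocyte markers were higher in IP for 15 of 15 genes in each genotype (median log2 ratio 2.02 in Control and 2.20 in Crym KO), and their summed level was 22064 to 30622 CPM in Control IP and 28912 to 33489.8 CPM in Crym KO IP against 7524 to 8105 CPM over all Input libraries. Microglial (median -4.76 and -4.81) and endothelial markers (-3.71 and -3.86) were lower for 8 of 8 and 6 of 6 genes. Markers of medium spiny neurons were also higher in IP, 10 of 11 genes in Control and 9 of 11 in Crym KO (median 0.60 and 0.50, summed level 4505 to 5514 CPM in IP and 2514 to 3556 CPM in Input). Interneuron markers were higher for 6 of 7 genes in each genotype (median 1.73 and 1.69), and ependymal markers for 4 of 4 (2.31 and 2.27). Cortical glutamatergic neuron markers were lower for 4 of 4 (-1.20 and -0.92). Pan-neuronal markers were higher for 2 and lower for 2 of 6 (-0.11 and -0.07). Oligodendrocyte markers summed to 5044 to 7527 CPM in Control IP and 3816 to 5966 CPM in Crym KO IP. Libraries of bulk tissue cannot tell more cells of a type from more RNA per cell.

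Many messages of the translation machinery, those of elongation factors among them, are known to open with a pyrimidine tract that couples them to the growth regulator mTORC1, and the start sites of these genes are shown for that reason. RefSeq start sites (build GRCm38.p6) were matched by symbol for 45 of the 59 genes tested, and the 15 bases on each side were searched for runs of C and T on the sense strand. Shown are Eif3f, the eIF3 subunit that was lower in IP, Eif3l, a subunit that was higher, the eEF1A pair, and Eif2b5, which had the longest run, with the longest run of C and T in capitals and the first transcribed base at position 16:
Eif3f, chr7:108934400-108934429 (+): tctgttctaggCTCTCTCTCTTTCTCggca
Eif3l, chr15:79075208-79075237 (+): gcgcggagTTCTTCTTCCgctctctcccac
Eef1a1, chr9:78481710-78481739 (-): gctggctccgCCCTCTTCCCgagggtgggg
Eef1a2, chr2:181157001-181157030 (-): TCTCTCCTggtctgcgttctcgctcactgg
Eif2b5, chr16:20498802-20498831 (+): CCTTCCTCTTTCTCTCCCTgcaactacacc
The run was 15 bases long in Eif3f, 10 in both Eif3l and Eef1a1, 8 in Eef1a2 and 19 in Eif2b5. Runs of 8 or more bases stood at 8 of 45 factor genes (17.8%) and at 11.9% of 27025 RefSeq genes, and at 4 of 12 factor genes whose mean log2 ratio (IP over Input) was under 0 against 4 of 33 above 0. The window takes in bases before the start. Among these 8 genes the runs of Eef1a2 and Eef1akmt2 end before the first transcribed base, and so lie outside the message as annotated. Those of Eif3f, Eef1a1, Eif3l and Eif2b5 begin at -4, -5, -7 and -15 from that base and cross it. Part of each of these runs therefore also lies outside the message. Those of Eif2b2 and Eif4enif1 begin 5 and 6 bases after it. Eif3f and Eif3l, whose runs differ in length and in the part that lies before the start, had ratios on opposite sides of 0. The part of the runs in these ratios was not tested. Eef2 and Eef1b2, also elongation factors, had longest runs of 2 and 4 bases. Whether the annotated starts are those used in this tissue was not tested, so the counts do not say which messages open with a tract. A match is a description of the letters only.

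IP over Input, the comparison of RNA pulled down with the tag and RNA of the whole tissue, put most factor genes on the higher side under TMM scaling, by small amounts. The summed level of the factor genes was 8628 to 8763 CPM in Control IP against 7392 to 7484 CPM in Control Input. In Control 38 of 59 genes were higher in IP and 13 lower (limma-voom, adjusted p under 0.05), where 36.7% of all genes tested were higher and 38.5% lower. In Crym KO 38 were higher and 13 lower, against 36.2% and 37.9% of all genes. Among protein-coding genes the higher share was 44.6% in Control and 43.8% in Crym KO, and the lower share 29.9% and 29.2%. The factor genes' median log2 ratio was 0.20 in Control and 0.22 in Crym KO, against 0.10 in both for protein-coding genes and -0.02 for all genes. In all, 37 genes were higher and 13 lower in both genotypes, where 33.6% and 34.9% of all genes were. In 48 of these genes all 4 mice of both genotypes moved in the called direction. This is no separate test, since the same libraries made the calls. The same holds below where the IP and Input libraries of a called gene do not overlap. The genes called in neither genotype were Eif1a, Eif1ax, Eif3e, Eif4e, Eef1e1, a scaffold protein of the synthetase complex, and the eEF1A methyltransferases Eef1akmt1 and Eef1akmt2, and Eif3h and Eif1ad were called in 1 genotype only.

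The ratio depends on how IP and Input libraries are scaled. Upper quartile scaling moved the median of all genes by -0.16 and scaling to the total count by -0.19 on the log2 scale, and the factor genes then split into 24 higher and 17 lower, and 21 and 21, in Control, and into 25 and 19, and 24 and 19, in Crym KO. Taking the 4 scalings tried together, 21 of 59 factor genes were higher and 13 lower under each of them in Control, where 24.8% and 38.5% of all genes were. In Crym KO 24 were higher and 13 lower under all 4, where 24.5% and 37.9% of all genes were. In both genotypes 21 were higher and 13 lower under all 4, and the share of all genes was not counted for this. The other scalings all moved ratios down from TMM, and no lower call was lost to them. In Control 7955 of all genes were lower under TMM and 7955 under all 4, and in Crym KO 7820 and 7820. Lower under all 4 scalings is therefore no further check of a gene that was lower under TMM. The sign turned with the scaling for 15 genes, 10 of them called under TMM. Of the 59 factor genes 43 in Control and 44 in Crym KO lay above the median of all genes, and 39 and 38 above that of protein-coding genes, a place that a shift common to all genes leaves as it is.

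**Figure D1:**
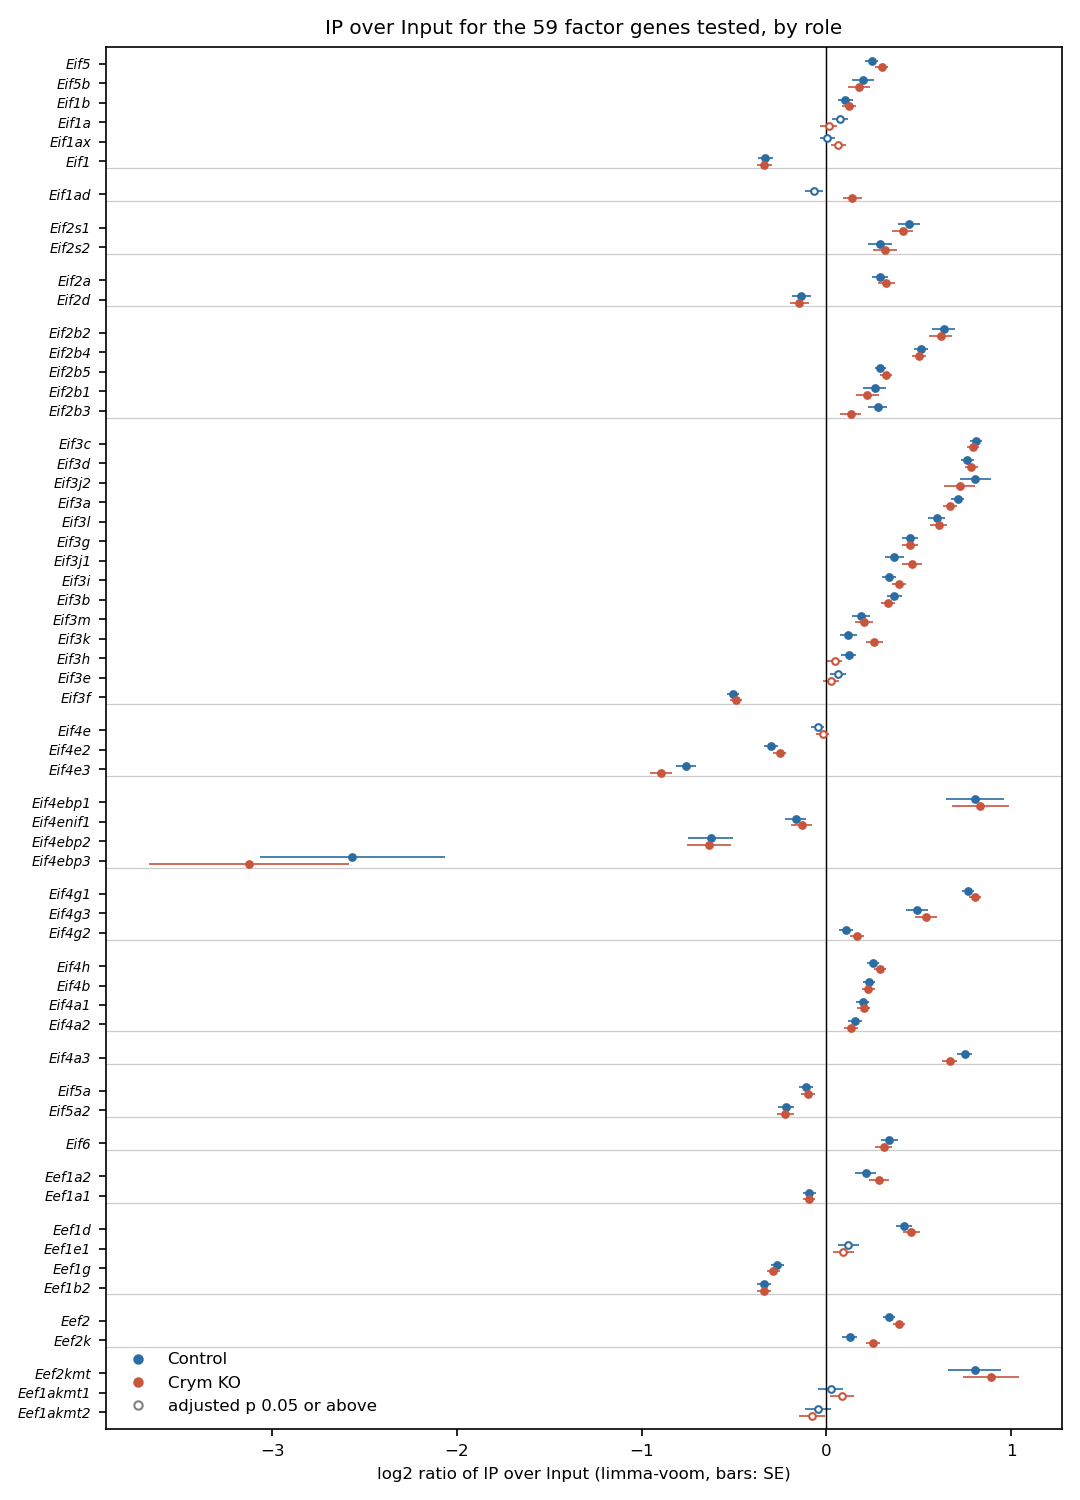
Log2 ratio of IP over Input (x axis) for the 59 factor genes tested, one row per gene, grouped by role between the grey lines. Blue points are Control, red points Crym KO, bars the SE from limma-voom with TMM scaling, and open points an adjusted p of 0.05 or above. Most eIF3, eIF2B and eIF4G genes sit right of 0, Eif3f, Eef1b2 and Eif4e3 sit left in both genotypes, and Eif4ebp3 at the far left rests on few reads. Scaling to the total count would move the median of all genes by -0.19, so points close to 0 on the right can change side.

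The eIF3 genes lay on both sides of 0. Of 14 genes, 11 were higher in both genotypes under TMM, where 33.6% of all genes were (protein-coding genes in each genotype alone: 44.6% in Control and 43.8% in Crym KO). Of these 11, 9 were higher under all 4 scalings. Eif3f was lower under all 4, and Eif3e did not pass the test in either genotype. Eif3h was called in Control only (0.12 ± 0.04 in Control and 0.04 ± 0.04 in Crym KO) and lost that call with the mouse as a block (0.10, adjusted p = 0.0530), as did Eif3k in Control (0.10, adjusted p = 0.0927). The call of Eif3k was also lost without Control IP 1, Control Input 1 or Control Input 3 (0.09 to 0.11, adjusted p = 0.0657 to 0.0871). Under upper quartile or total count scaling Eif3e, Eif3h, Eif3k and Eif3m changed sign in at least 1 genotype. Eif3c, a core subunit that contacts eIF1 and eIF5 and the eIF3 gene of the highest mean ratio, had 178, 178, 176 and 174 CPM in Control Input, 309.9, 320.3, 310.0 and 302 in Control IP, 179, 179.7, 182 and 179 in Crym KO Input and 313, 306, 330.1 and 301 in Crym KO IP, in mice 1 to 4 of each group. No IP library overlapped an Input library, and the log2 ratio was 0.81 ± 0.03 in Control and 0.79 ± 0.03 in Crym KO (adjusted p = 4.38e-12 and 4.98e-12). High ratios were also those of Eif3d, which contacts the cap of some mRNAs (0.76 and 0.79), Eif3a, the backbone of the complex (0.71 and 0.67), and Eif3l (0.60 and 0.61), while Eif3b, Eif3g and Eif3i had values from 0.33 to 0.45 over both genotypes. For Eif3d 43.3% of its annotated exon bases overlap a gene on the other strand, and whether counting used strand is not given in the sources used here.

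Eif3f (chr7:108934417-108942951, + strand, GRCm38) encodes an MPN-domain subunit of eIF3 that is known to bind mTOR. Its levels were 59.5, 60.7, 61.04 and 63.1 CPM in Control Input, 44.9, 41.5, 42.2 and 43.6 in Control IP, 56.2, 59.3, 58.2 and 57.3 in Crym KO Input and 39.9, 41.3, 41.7 and 41.6 in Crym KO IP. All 8 IP libraries lay below all 8 Input libraries, and the log2 ratio was -0.51 ± 0.03 in Control and -0.49 ± 0.03 in Crym KO (adjusted p = 1.43e-09 and 2.25e-09). Within 1 complex, the transcripts of Eif3c and Eif3f thus stood on opposite sides of Input under each of the 4 scalings. Eif3f is also the subunit of the 15-base C and T run shown above, whose part in this value was not tested.

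Among the cap complex genes the scaffold was higher in IP and the cap-binding proteins were not. Eif4g1, the main scaffold, had 283, 274, 286 and 277 CPM in Control Input, 455, 482, 488 and 483 in Control IP, 277, 289.6, 274 and 287 in Crym KO Input and 477, 499, 502 and 494 in Crym KO IP, without overlap between IP and Input. Its log2 ratio was 0.77 ± 0.03 in Control and 0.81 ± 0.03 in Crym KO (adjusted p = 8.81e-12 and 5.07e-12), and Eif4g3 followed with 0.49 and 0.54. Eif4g2, a related protein that lacks the eIF4E-binding site, had 0.11 and 0.17. The call of Eif4g2 in Control was lost with the mouse as a block (0.08, adjusted p = 0.124), and its sign turned under upper quartile scaling in Control and under total count scaling in both genotypes. The helicase genes Eif4a1 (0.20 and 0.20) and Eif4a2 (0.15 and 0.14) and the helicase partners Eif4b and Eif4h (0.23 to 0.29) were called higher under TMM. Under all 4 scalings this held for Eif4h in Crym KO and for none of them in Control, and Eif4a2 turned negative under upper quartile and total count scaling. Eif4a3, a helicase of the exon junction complex rather than of initiation, was higher under all 4, at 0.75 ± 0.04 in Control and 0.67 ± 0.04 in Crym KO.

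Eif4e itself, which encodes the cap-binding protein, had a log2 ratio of -0.05 ± 0.04 in Control and -0.02 ± 0.04 in Crym KO (adjusted p = 0.245 and 0.633) and did not pass under TMM, while it was called lower under upper quartile (-0.21 and -0.18) and total count scaling (-0.24 and -0.21) and with the filter of 1 CPM in at least 4 libraries (-0.12 and -0.09, adjusted p = 0.00746 and 0.0308). Its relatives were lower: Eif4e2, which binds caps and represses translation, at -0.30 and -0.25, and Eif4e3, an atypical cap binder, at -0.76 ± 0.06 in Control and -0.90 ± 0.06 in Crym KO (adjusted p = 3.38e-09 and 7.01e-10). Eif4e3 had 17.2, 18.5, 16.9 and 17.7 CPM in Control Input, 10.7, 10.4, 10.9 and 9.46 in Control IP, 17.3, 16.9, 16.9 and 17.3 in Crym KO Input and 9.38, 9.02, 8.398 and 9.96 in Crym KO IP, and every IP library was below every Input library. Of its exon bases 14.8% overlap a neighbouring gene model on the same strand.

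The eIF4E inhibitors diverged from one another. Eif4ebp1, the inhibitor best known as a target of mTORC1, was higher in IP at 0.80 ± 0.16 in Control and 0.83 ± 0.15 in Crym KO (adjusted p = 0.0002205 and 0.000127), with 1.802, 1.65, 1.43 and 1.03 CPM in Control Input, 2.56, 2.47, 2.703 and 2.32 in Control IP, 1.76, 1.496, 1.53 and 1.53 in Crym KO Input and 3.61, 2.52, 2.71 and 2.63 in Crym KO IP. Eif4ebp2, the form known as the main one of the brain, was lower at -0.63 ± 0.12 in Control and -0.64 ± 0.12 in Crym KO (adjusted p = 0.0002299 and 0.000179), with 7.23, 5.69, 5.92 and 5.87 CPM in Control Input, 3.14, 3.998, 4.32 and 4.58 in Control IP, 6.06, 8.05, 5.98 and 6.31 in Crym KO Input and 3.84, 4.27, 4.45 and 4.34 in Crym KO IP. IP and Input did not overlap for either gene, and both directions held under each scaling. Eif4ebp3 had 133 reads in all, 10 over the 4 Control IP libraries and 58 over Control Input, 7 over Crym KO IP and 58 over Crym KO Input. Its fitted log2 ratio of -2.57 and -3.13 rests on those reads. Eif4enif1, which carries eIF4E into the nucleus, had -0.17 and -0.13 (adjusted p = 0.0164 and 0.0460). Its call in Control was lost without a filter on low counts (-0.13, adjusted p = 0.0698) and without Control IP 1 (-0.11, adjusted p = 0.0776). In Crym KO it was lost in 14 of 28 alternatives, which were no filter and the leaving out of any 1 of 13 libraries (-0.15 to -0.08, adjusted p = 0.0516 to 0.206). The libraries without which it was kept were Crym KO Input 2, Crym KO IP 3 and Control IP 1.

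**Figure D2:**
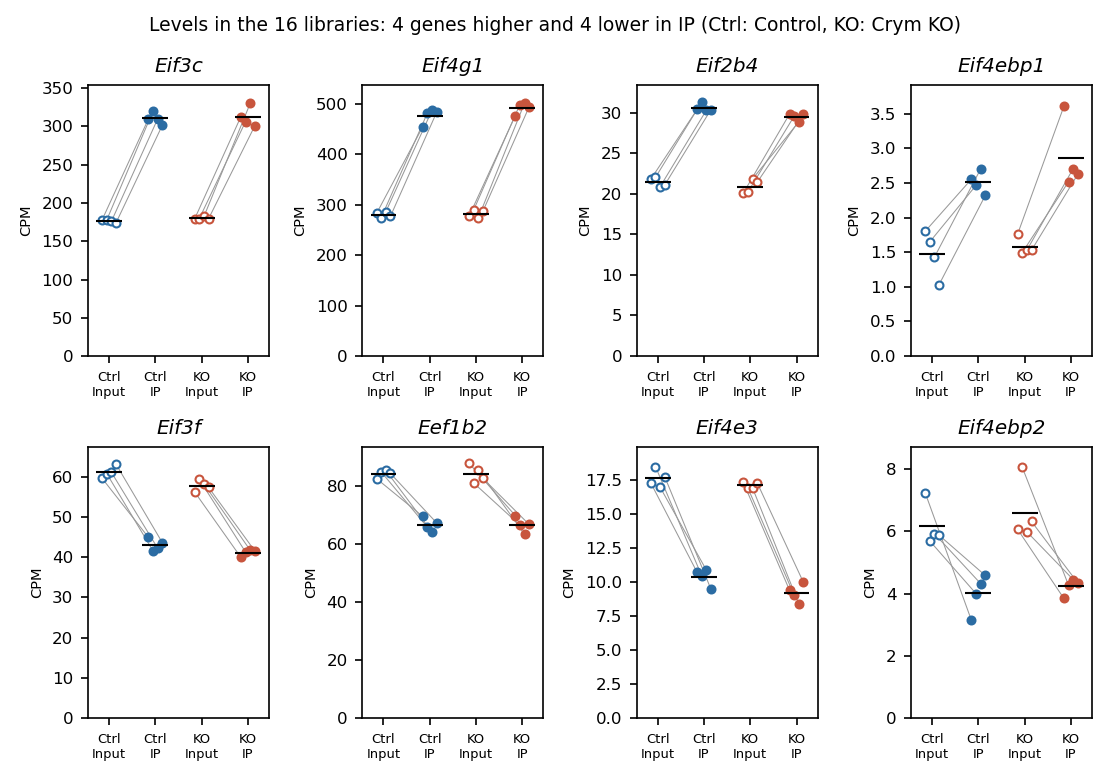
Levels in CPM (y axis, from 0) of 8 factor genes in the 16 libraries, with Input as open and IP as filled points, Control in blue and Crym KO in red. Grey lines join the Input and IP library of the same mouse and black bars are group means. In the upper row all IP points lie above all Input points, in the lower row below, as for Eif3f at 39.9 to 44.9 CPM in IP against 56.2 to 63.1 CPM in Input.

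The 5 eIF2B genes code for the exchange factor that recycles eIF2, and their mutations in people cause vanishing white matter disease. All 5 were called higher in IP in both genotypes, where 33.6% of all genes were (protein-coding genes in each genotype alone: 44.6% in Control and 43.8% in Crym KO). Eif2b2 (0.64 and 0.62), Eif2b4 (0.51 and 0.50) and Eif2b5 (0.29 and 0.32) were so under all 4 scalings. Eif2b1 (0.26 and 0.22) kept its sign but not its call. Eif2b3 had 0.28 in Control and 0.13 in Crym KO, where the mouse block ended the call (0.12, adjusted p = 0.107) and upper quartile and total count scaling turned the sign. Its call in Crym KO was also lost without Crym KO IP 1, Crym KO IP 2, Crym KO Input 1 or Crym KO Input 3 (0.10 to 0.14, adjusted p = 0.0561, 0.0687, 0.0704 and 0.133). Eif2b4, which codes for the δ subunit, had 21.8, 22.01, 20.9 and 21.1 CPM in Control Input, 30.4, 31.3, 30.3 and 30.4 in Control IP, 20.1, 20.2, 21.8 and 21.4 in Crym KO Input and 29.8, 29.6, 28.9 and 29.8 in Crym KO IP. The IP libraries were all above the Input libraries. The eIF2 genes themselves were also higher, Eif2s1 (α subunit, the one the eIF2 kinases phosphorylate) at 0.45 and 0.41 under all scalings and Eif2s2 (β subunit) at 0.29 and 0.32 under TMM.

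The factors that act at the start codon were mixed. Eif1, whose protein keeps scanning stringent, was lower at -0.33 ± 0.04 in Control and -0.34 ± 0.04 in Crym KO (adjusted p = 1.31e-06 and 1.07e-06) under every scaling, while Eif5, the GTPase activator of eIF2, had 0.24 and 0.30 and Eif5b, the subunit joining factor, 0.20 and 0.18, both called under TMM. Eif5 kept its call under all 4 scalings in Crym KO and lost it under total count scaling in Control (0.05, adjusted p = 0.152). Eif5b lost its call under upper quartile and total count scaling in both genotypes, at -0.01 in Crym KO under the latter. Of the exon bases of Eif5b 16.9% overlap a gene on the other strand. Eif1a (0.07 and 0.01) and Eif1ax (0.00 and 0.06), the genes of eIF1A, did not pass under TMM. Eif1ax was called lower under upper quartile (-0.16 and -0.10) and total count scaling (-0.19 and -0.13) in both genotypes. Eif1a was called lower under both in Crym KO (-0.15 and -0.18) and under total count scaling in Control (-0.12). Eif1a passed in Control without Control Input 2 (0.11, adjusted p = 0.0366). Eif1b had 0.10 and 0.12, and its call in Control was lost with the mouse block (0.08, adjusted p = 0.149) and without Control Input 1, 3 or 4 (0.08 to 0.10, adjusted p = 0.0539, 0.0905 and 0.0509), and its sign turned under upper quartile and total count scaling in both genotypes. Eif6, which keeps the large subunit apart from the small one, was higher at 0.34 and 0.31 under all scalings, and Eif2d, an alternative tRNA loading factor, had -0.14 and -0.15 (adjusted p = 0.0223 and 0.0175). Eif2a, another such factor, was higher at 0.29 and 0.33 under TMM. The call of Eif2d was lost without a filter on low counts in both (adjusted p = 0.124 and 0.0986). It was also lost in Control without Control IP 2 or IP 4 or Control Input 2 or Input 4 (-0.12, adjusted p = 0.0568 to 0.0689), and in Crym KO without Crym KO Input 1 or Input 4 (-0.12 and -0.11, adjusted p = 0.0730 and 0.0729).

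In elongation the subunits of eEF1B split as those of eIF3 did. Eef1d (δ subunit) was higher at 0.42 and 0.46, and Eef1b2 (β) and Eef1g (γ) were lower at -0.34 and -0.34, and -0.27 and -0.29, each under all 4 scalings. Eef1b2 had 82.7, 84.99, 85.5 and 84.5 CPM in Control Input, 69.6, 65.9, 64.2 and 67.4 in Control IP, 87.97, 81.2, 85.7 and 82.8 in Crym KO Input and 69.9, 66.6, 63.5 and 66.8 in Crym KO IP, and all IP libraries were below all Input libraries (adjusted p = 5.24e-07 and 5.03e-07). Eef2, which drives translocation, was higher at 0.34 ± 0.03 in Control and 0.39 ± 0.03 in Crym KO, and its kinase Eef2k at 0.13 and 0.25. The call of Eef2k in Control was lost with the mouse block (0.11, adjusted p = 0.0546) and its sign there changed under upper quartile (-0.03) and total count scaling (-0.06). Eif5a (-0.11 and -0.10) and Eif5a2 (-0.22 and -0.22) were both lower under TMM, and the other scalings only moved these values further down. Eif5a lost its call in Control without Control IP 4 or Control Input 1 (-0.09 for both, adjusted p = 0.0528 and 0.0548) and in Crym KO without Crym KO IP 3, IP 4, Input 2 or Input 4 (-0.09 to -0.07, adjusted p = 0.0716, 0.0672, 0.104 and 0.0522). Eef2kmt, a methyltransferase of eEF2, had the highest mean ratio of all members (0.80 ± 0.14 in Control and 0.89 ± 0.15 in Crym KO) at 1.88 to 4.56 CPM, and 23.0% of its exon bases overlap genes on the other strand.

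The eEF1A pair moved apart. Eef1a1, the general form, had 1147, 1154, 1175 and 1201 CPM in Control Input, 1132, 1061, 1098 and 1099 in Control IP, 1181, 1113, 1170.5 and 1099.8 in Crym KO Input and 1099.6, 1084, 1027 and 1067 in Crym KO IP. Eef1a2 had 783, 737, 749 and 754 CPM in Control Input, 799.7, 979, 875 and 861 in Control IP, 729, 745, 721 and 719.8 in Crym KO Input and 869, 859.7, 992 and 839 in Crym KO IP. The log2 ratio of IP over Input was -0.09 ± 0.03 in Control and -0.09 ± 0.03 in Crym KO for Eef1a1 (adjusted p = 0.0261 and 0.0233) and 0.21 ± 0.06 in Control and 0.29 ± 0.06 in Crym KO for Eef1a2 (adjusted p = 0.00269 and 0.000242). The call of Eef1a1 was lost in both genotypes when its pseudogene reads were added (adjusted p = 0.0867 and 0.0543). It was also lost in Control without Control IP 2, IP 3 or IP 4 or Control Input 3 or Input 4 (-0.09 to -0.07, adjusted p = 0.0559 to 0.0958), and in Crym KO without Crym KO IP 3 or IP 4 or Crym KO Input 1 or Input 3 (-0.09 to -0.06, adjusted p = 0.0539 to 0.120). The call of Eef1a2 was lost under upper quartile (0.05 and 0.12) and total count scaling (0.02 and 0.09). The share of the pair is free of scaling. Per length of annotated exon, Eef1a2 made up 48.9% ± 2.75 (SD, n = 4) of the pair in Control IP and 43.6% ± 0.914 in Control Input, and 49.8% ± 2.51 and 43.3% ± 1.04 in Crym KO, and all 8 IP libraries were above all 8 Input libraries (45.8% to 53.6% against 42.4% to 44.9%). With pseudogene reads counted for Eef1a1 the shares were 40.9% and 36.2% in Control and 41.9% and 35.8% in Crym KO. Markers of medium spiny neurons and of interneurons were also higher in IP, pan-neuronal markers went both ways and cortical markers were lower, and the part of these in the share was not tested. A difference between genotypes in this share did not pass (exact two-sided permutation p = 0.571 in IP and 0.714 in Input).

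Eif4a2 made up 88.5% to 89.8% of the Eif4a1 and Eif4a2 pair per length in all 16 libraries, and Eif5a2 22.8% to 27.5% of the Eif5a pair. The permutation p between genotypes was 0.286 in IP and 0.571 in Input for the first and 0.571 and 0.657 for the second. The share of Eif4a2 cannot be taken as it stands, because the coding sequence of Eif4a1 has a near-identical copy in the genome, described below. Across factor genes, the per-length level (RPKM on annotated exons) was highest for Eef1a1 (440.3 in Control IP), Eef1a2 (422) and Eef2 (391), followed at a distance by Eif4a2 (91.1), Eif3c (88.4), Eif4b (66.9) and Eif4g1 (65.3). Eif2b3 (2.15), Eef2kmt (1.505), Eif4ebp1 (1.14) and Eif4ebp2 (0.693) were at the low end of those tested, above Eif4ebp3 (0.0593).

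**Figure D3:**
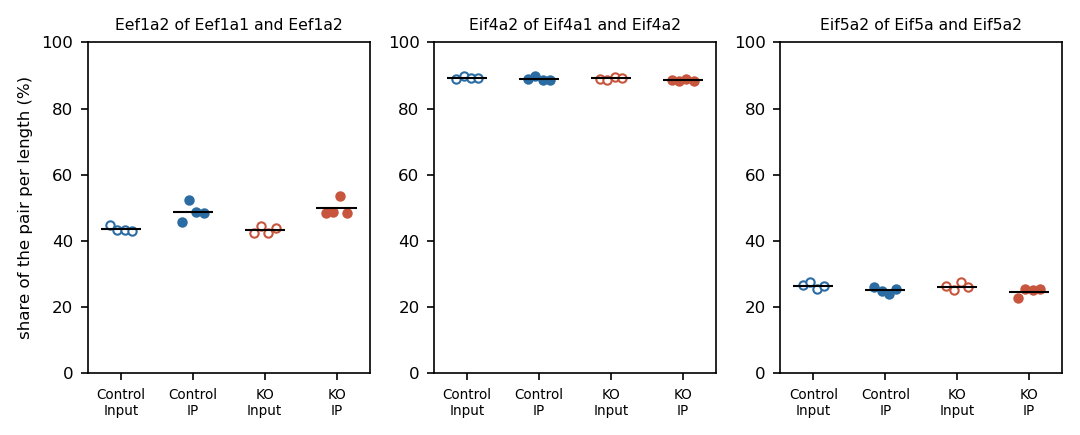
Share of one gene within a pair of paralogues per length of annotated exon (y axis, percent), in each of the 16 libraries, for Eef1a2, Eif4a2 and Eif5a2. Open points are Input and filled points IP, with Control in blue, Crym KO in red and group means as black bars. The Eef1a2 share is 45.8% to 53.6% in IP and 42.4% to 44.9% in Input, and the points of both genotypes overlap.

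Several factor genes have near-identical copies elsewhere in the genome. The coding sequence of Eif4a1 (chr11:69666936-69672423, - strand) matches the processed pseudogene Eif4a-ps4 (chr1:60703932-60705149, + strand) over 1218 bases with a single difference, G534A, counted from the first coding base with Eif4a1 given first. A stretch of 60 coding bases around it is shown because most 69-base stretches of this coding sequence have the same letters in both genes, with the differing base in capitals:
Eif4a1, coding bases 504 to 563: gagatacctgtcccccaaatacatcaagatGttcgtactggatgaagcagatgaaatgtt
Eif4a-ps4: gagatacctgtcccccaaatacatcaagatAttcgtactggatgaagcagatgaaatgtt
Of 1150 windows of 69 bases along this coding sequence, 94% are the same in both. The annotated exons of Eif4a1 hold 4334 bases, and the match covers the coding part only. Eif4a-ps4 held 143979 reads over all libraries and Eif4a1 38891, although only uniquely placed reads were counted, and the level of Eif4a1 is therefore uncertain. With the copies' reads added, the log2 ratio of Eif4a1 was 0.35 in both genotypes in place of 0.20, and Eif4a2 was 61.8% to 65.1% of its pair in group means rather than 88.7% to 89.3%. Its share was then 61.2% to 62.7% over the IP libraries of both genotypes and 64.3% to 65.8% over the Input libraries, without overlap.

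Copies of at least 95% identity over 200 bases that have a row in the count table were found for 18 members. Pseudogene copies held 80802 reads against 43653 of Eef1g itself, 16555 against 22051 for Eif2s2, and 13598 against 33288 for Eif3m, and for Eef1a1 354198 against 946307. Eif3j1 (chromosome 2) and Eif3j2 (chromosome 18) are identical over 781 bases, so their separate levels are uncertain, while both were higher in IP (0.37 to 0.81). When pseudogene reads were added, a choice made after seeing the data, 10 of 13 tested members with such copies stayed called in the same direction in each genotype, Eef1a1 lost its call, Eif3e and Eif4e remained uncalled, and none of the 13 changed sign.

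Longer coding sequences went with higher ratios among these genes. Over the 59 members the mean log2 ratio of both genotypes correlated with the length of the longest annotated coding sequence at a Spearman rho of 0.44 (Pearson r 0.45 on log2 length), and each was 0.41 without Eif4ebp3, compared with 0.07 for each over 15351 protein-coding genes. All points share the same 16 libraries, and genes are not independent replicates, so these are descriptions. The 19 shortest members (303 to 762 bases) had a median of 0.03, with 9 below 0, and the 19 longest (1389 to 5286 bases) a median of 0.35, with 2 below 0. Exceptions were Eif4ebp1 and Eif4enif1, a short gene high and a long gene low.

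**Figure D4:**
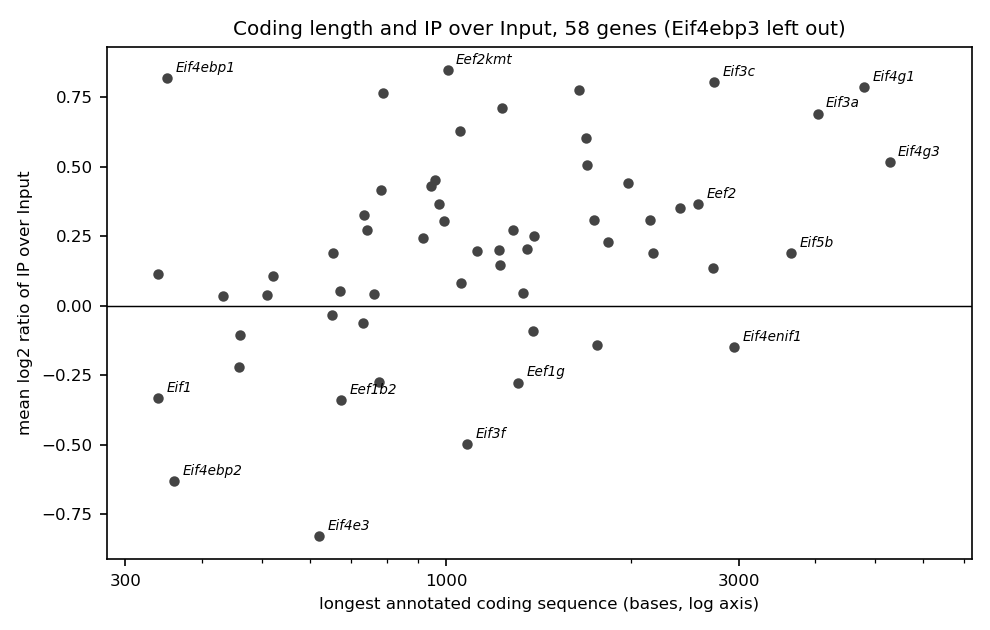
Longest annotated coding sequence in bases (x axis, log scale) against the log2 ratio averaged over both genotypes (y axis, IP over Input, TMM scaling) for 58 factor genes, 1 point per gene, with Eif4ebp3 left out for its few reads. Short genes lie on both sides of 0 and of the 19 longest all but Eif4enif1 and Eif2d lie above it (Spearman rho 0.41).

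Genes of neighbouring steps of translation gave the following counts, from lists drawn up with earlier results of these data known. Under TMM, 36.7% of all genes and 44.6% of protein-coding genes were higher in Control, and 36.2% and 43.8% in Crym KO. The lower shares were 38.5% and 29.9% in Control, and 37.9% and 29.2% in Crym KO. Cytosolic aminoacyl-tRNA synthetases, which charge tRNA, were higher in IP for 20 of 20 genes in both genotypes (median 0.48 and 0.54), and for 17 of 20 under upper quartile and total count scaling, among them Dars (0.98 and 0.97) and Lars (0.59 and 0.66). Termination, recycling and rescue factors were higher for 5 of 8 genes in Control and 6 of 8 in Crym KO (5 under upper quartile and total count scaling), with the release factors Gspt1 (0.51 in both) and Etf1 (0.40 and 0.35) among them. None was lower under TMM, and 2 in Control and 1 in Crym KO were lower under those scalings. Mitochondrial translation factors were higher for 7 of 9 in both, such as Gfm1 (0.75 and 0.76), and for 4 to 6 of 9 under upper quartile and total count scaling, where 2 of 9 were lower. Of 15 genes of mTORC1 and eIF4E signalling 9 were higher in both genotypes, Tsc2 (0.50 in both) and Mtor (0.43 and 0.46) among them, and 5 in Control and 2 in Crym KO were lower, with Rps6kb2, an S6 kinase, at -0.91 and -1.09. Upper quartile scaling split this list into 6 higher and 6 lower in both genotypes. The eIF2 kinases and phosphatase subunits were higher for 5 of 6 genes in both, but for 1 in Control and 2 in Crym KO under total count scaling. The hypusine enzymes Dohh (-0.18 and -0.13) and Dhps (-0.12 and -0.13), which modify eIF5A, were lower in both genotypes, as Eif5a and Eif5a2 were. The scalings other than TMM only moved these values further down. Diphthamide enzymes, which modify eEF2, were higher for 3 and lower for 1 of 6, and poly(A) binding proteins higher for 2 and lower for 2 of 5, in each genotype, and the medians of both lists were below 0 under upper quartile and total count scaling.

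Crym KO against Control asks whether loss of Crym in astrocytes changed these genes, in the RNA pulled down with the tag (IP) or in the tissue (Input). No factor gene passed in IP (limma-voom, 0 of 59, background 0.0339% of all genes) or in Input (0 of 59, background 0.00969%). edgeR's quasi-likelihood test also called none, and DESeq2 called Eif2b3 in IP and none in Input, where it called 71 and 47 of all 20645 genes. Without adjustment, 6 genes in IP (background 7.67%) and 4 in Input (7.07%) had a p under 0.05 by each of the 3 tools. The median log2 change was 0.00 in both fractions, 53 of 59 genes differed by less than 0.1 on the log2 scale in each, and apart from Eif4ebp3 the estimates ran from -0.24 to 0.17 in IP and from -0.17 to 0.14 in Input. The approximate 95% intervals of all members but Eif4ebp3 lay within -0.34 to 0.43 in IP and -0.50 to 0.48 in Input. They use the normal distribution and are narrower than the t distribution of limma would give. A missed threshold does not show equal levels.

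Eif2b3 (chr4:117019402-117087306, + strand, GRCm38), which encodes the γ subunit of eIF2B, had the smallest p. Its levels were 14.9, 14.2, 13.5 and 13.4 CPM in Control IP and 11.9, 11.97, 11.8 and 11.6 CPM in Crym KO IP. All 4 Crym KO IP libraries were below all 4 Control IP libraries, at 84.5% of Control (log2 change -0.24 ± 0.05, approximate 95% interval -0.34 to -0.14 from the normal distribution). The unadjusted p was 0.000217, the adjusted p 0.268 and the exact permutation p 0.0286, which is the smallest that 4 against 4 mice can give. DESeq2 gave an adjusted p of 0.0202, and the adjusted p over all alternatives ran from 0.0202 to 0.966, while the change itself stayed between -0.26 and -0.21. In Input the levels were 11.3, 12.2, 11.4 and 11.3 CPM in Control and 10.6, 11.4, 10.02 and 11.3 CPM in Crym KO, which overlap (-0.10 ± 0.06, adjusted p = 0.753), and the difference between the fractions did not pass (-0.15 ± 0.08, unadjusted p = 0.0732, adjusted p = 1.00). The other eIF2B genes had changes of -0.09 (Eif2b2), -0.05 (Eif2b4), -0.03 (Eif2b1) and -0.01 (Eif2b5) in IP.

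The other values with an unadjusted p under 0.05 in IP were those of Eif5, Eif4e3, Eif4g2, Eef2k and Eif1a, at adjusted p-values of 0.478 to 0.623. Eif5 was at 218, 203, 212 and 211 CPM in Control IP and 222, 240.2, 227 and 225 CPM in Crym KO IP (0.11 ± 0.03), without overlap, and in Input at 181, 179.5, 179.6 and 173 against 182, 188, 189 and 183 CPM (0.06 ± 0.03), again without overlap. Eef2k, the kinase that restrains eEF2, had 43.4, 41.7, 41.8 and 42.4 CPM in Control IP and 44.1, 47.2, 44.6 and 44.3 CPM in Crym KO IP (0.09 ± 0.04). The changes were -0.18 ± 0.06 for Eif4e3, 0.09 ± 0.04 for Eif4g2 and -0.10 ± 0.04 for Eif1a. Groups did not overlap in IP for 3 genes with Crym KO below (Eif2b3, Eif2b4 and Eif1a, background 0.94%) and 2 with Crym KO above (Eif5 and Eef2k, background 1.21%). Oligodendrocyte markers had a median change of -0.34 in Crym KO IP (7 of 9 below Control at an unadjusted p under 0.05, none past adjustment) and Rpl22 was higher, and the part of either in these values was not tested.

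In Input the 4 genes were Eif3k, Eif3f, Eif1ad and Eif3i, all with lower values in Crym KO and with adjusted p-values of 0.652 to 0.686. Eif3k, an outer subunit of eIF3, had 52.6, 55.1, 51.7 and 57.1 CPM in Control Input and 51.04, 48.99, 50.5 and 47.8 CPM in Crym KO Input, 91.7% of Control (-0.12 ± 0.05, unadjusted p = 0.0171). Medium spiny neuron markers had positive values in this contrast for 11 of 11 genes (median 0.21, 5 at an unadjusted p under 0.05, none past adjustment), and their part in these values was not tested. The values of Eif3f and Eif3i were -0.08 ± 0.03 and -0.09 ± 0.04. Groups did not overlap in Input for 5 genes with Crym KO below (these 4 and Eif4e2, background 2.18%) and 2 with Crym KO above (Eif5 and Eif3c, background 2.9%).

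Whether the effect of Crym KO differed between IP and Input was tested as an interaction, and no factor gene passed (0 of 59 by limma-voom, edgeR and DESeq2, background 0%). The unadjusted p was under 0.05 for Eif1ad, Eef2k and Eif3k (background 3.41%). Eif1ad, a nuclear relative of eIF1A, was at 21.7, 20.5, 21.2 and 20.02 CPM in Control Input and 20.4, 20.4, 19.5 and 19.2 in Control IP, and at 18.6, 19.7, 19.7 and 18.7 in Crym KO Input and 20.4, 21.6, 22.9 and 19.8 in Crym KO IP. Under TMM, IP was below Input in 4 of 4 Control mice and above it in 4 of 4 Crym KO mice, where upper quartile (-0.02) and total count scaling (-0.05) turned the fitted ratio in Crym KO. The interaction was a difference of 0.21 ± 0.07 on the log2 scale (unadjusted p = 0.00862, adjusted p = 1.00). Of the exon bases of Eif1ad 15.3% overlap a gene on the other strand. The differences for Eef2k and Eif3k were 0.13 ± 0.06 and 0.14 ± 0.07. No gene of the lists of eIF2 kinases, synthetases, release factors or mTORC1 signalling passed in either Crym KO contrast.

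**Figure D5:**
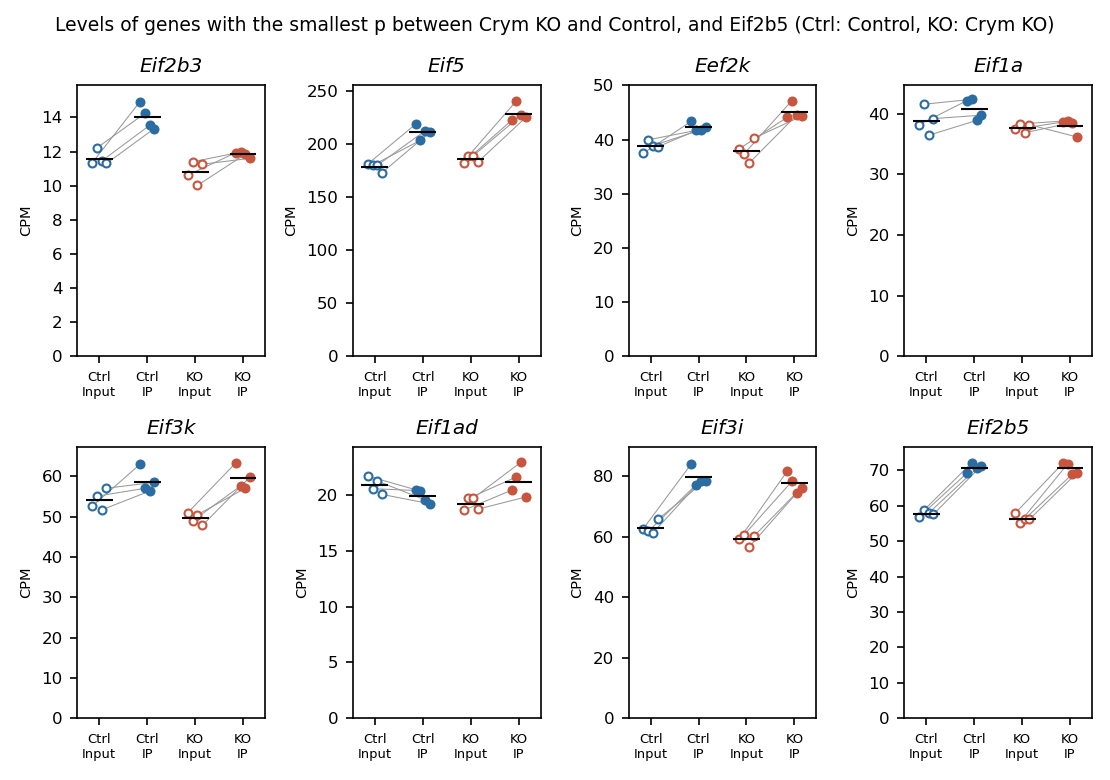
Levels in CPM (y axis, from 0) of 7 genes with an unadjusted p under 0.05 in a Crym KO contrast and of Eif2b5, in the 16 libraries. Input points are open and IP points filled, Control is blue and Crym KO red, grey lines join libraries of the same mouse and black bars are means. Eif2b3 in Crym KO IP lies below Control IP (13.4 to 14.9 CPM), and the Eif1ad lines run down in Control and up in Crym KO, the latter a direction that upper quartile and total count scaling turn. None of these passed adjustment with limma-voom.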

How the data were processed

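RNA-seq counts of 16 libraries, IP and Input of 4 Control and 4 Crym KO mice, were used as the authors deposited them: whole read counts per Ensembl gene, not normalized. Per the study's methods, rRNA-depleted paired-end reads of 69 bases were aligned with STAR to mm10 and unique reads were counted with HTSeq, with bcl2fastq 2.17 named in the submitters' processing notes. The strand setting is not given in the sources used here, and the gene model the authors describe is RefSeq, although rows carry Ensembl identifiers. Of 48795 identifiers 48435 matched GENCODE M21, which gave symbols, gene types and exon lengths.

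Genes were filtered with filterByExpr (20645 tested, 59 of them factor genes), scaled by TMM and fitted with limma-voom over 4 group means (R 4.3.3, limma 3.58.1, edgeR 4.0.16), with Benjamini-Hochberg adjustment over all genes and a threshold of 0.05. Single values were compared by an exact two-sided permutation test on log2(CPM + 0.1), which cannot go below 0.0286 for 4 against 4 mice. Alternatives were edgeR's quasi-likelihood test, DESeq2 1.42.0, RLE, upper quartile and total count scaling, 2 other filters, sample weights, fewer libraries, blocks, and counts summed with pseudogene copies (added after seeing the data). The limma-voom fit of Crym KO against Control in IP was tested on simulated counts, with 50 genes changed at each fold. It called 24% of genes changed 1.2-fold, 50% of those changed 1.5-fold, 72% at 2-fold and 88% at 4-fold. Small changes would therefore often be missed.

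IP and Input libraries of the same number within a genotype come from the same mouse by their labels. Their deviations from the group means correlated at r = 0.231 to 0.463 in Control and 0.0728 to 0.268 in Crym KO. On autosomal genes the values were 0.181 to 0.431 and -0.0116 to 0.220. IP libraries of the same number in Control and Crym KO, which are different mice, gave 0.163 to 0.312, and 0.0674 to 0.269 on autosomal genes. Number also goes with sex, so the pairing rests on the labels and not on these values. The mouse was a block in an alternative fit. No library pair held identical values, and all 24 replicate pairs differed by more than sampling noise. Mice are the replicates, and all libraries were sequenced as 1 pool.

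The genes, lists and alternatives were chosen with earlier results of these data known. Named with full values were paralogue sets, the 8 highest and 8 lowest members by mean ratio of IP over Input among those called in both genotypes, the eIF2B subunits, and members with an unadjusted p under 0.05 in a Crym KO contrast, and from each list up to 4 genes with the smallest p. Other members are named for their role, chosen after their values were seen.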

Additional observations from a re-analysis of the deposited data

Results flagged for a closer look

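A single library stood apart from the other 3 of its group in 15 of the 156 groups of 4 that were examined for 39 named factor genes by Dixon's criterion at the 95% level, and chance gives about 1 in 20, or 7.8 groups. In Control the libraries were Eif2b4 in IP 2 at 31.3 CPM (others 30.3 to 30.4), Eif5 in Input 4 at 173 CPM (179.5 to 181), Eif2b3 in Input 2 at 12.2 CPM (11.3 to 11.4), Eif3d in Input 2 at 62.5 CPM (58.1 to 58.6), Eif4a3 in Input 3 at 39.7 CPM (36.5 to 36.6) and Eif4ebp2 in Input 1 at 7.23 CPM (5.69 to 5.92).

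In Crym KO IP they were Eif1a in mouse 4 at 36.2 CPM (others 38.6 to 38.9), Eif3a in mouse 3 at 229 CPM (215 to 217) and Eef2k in mouse 2 at 47.2 CPM (44.1 to 44.6). In Crym KO Input they were Eif3c in mouse 3 at 182 CPM (179 to 179.7), Eif3d in mouse 2 at 59.3 CPM (55.7 to 56.2), Eif3j1 in mouse 3 at 20.6 CPM (18.4 to 18.7), Eif4e in mouse 1 at 78.0 CPM (82.3 to 82.7), Eif4ebp1 in mouse 1 at 1.76 CPM (1.4956 to 1.53) and Eif4ebp2 in mouse 2 at 8.05 CPM (5.98 to 6.31). Eif3d and Eif4ebp2 appear in Input of both genotypes, with the high library in mouse 2 for Eif3d.

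The ratio of IP over Input of Eif1ad differed in sign between the genotypes under TMM, with 0 of 4 Control mice and 4 of 4 Crym KO mice above 0. The difference was 0.21 on the log2 scale, with an adjusted p of 1.00 for the interaction (limma-voom). The gene was flagged because its mice separated in this way, so the exact permutation p of 0.0286 follows from the flag and adds no support.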

How the results depend on the processing

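For IP over Input, upper quartile scaling left 24 members higher in Control and 25 in Crym KO, and total count scaling 21 and 24, with 21 lower in Control. All other settings stayed within 1.5 times of 38 higher and 13 lower. With the mouse as a replicate block there were 33 higher and 13 lower in Control and 37 and 12 in Crym KO, where the filter dropped Eif4ebp3. With the replicate number as a block there were 38 and 13 in each, and no call of a member between genotypes changed. For Crym KO against Control in IP, DESeq2 called 1 member lower.

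The sign turned with the scaling for Eef1akmt1, Eef1e1, Eef2k, Eif1ad, Eif3e, Eif3h, Eif3k, Eif3m and Eif5b and for the members whose values follow, of which Eif4e turned with other settings. In Control upper quartile and total count scaling gave -0.088 and -0.12 for Eif1a, -0.056 and -0.088 for Eif1b, -0.0062 and -0.038 for Eif4a2 and -0.055 and -0.087 for Eif4g2. Eif1ax in Control, at 0.00, gave -0.16 and -0.19 with these, -0.014 with DESeq2 and RLE, -0.0065 with sample weights, -0.066 with the 1 CPM filter, -0.017 with 8 libraries and with the mouse block, and between -0.0089 and 0.031 without single libraries. In Crym KO upper quartile and total count scaling gave -0.15 and -0.18 for Eif1a, -0.10 and -0.13 for Eif1ax, -0.039 and -0.068 for Eif1b, -0.031 and -0.060 for Eif2b3 and -0.027 and -0.056 for Eif4a2, and total count scaling gave -0.025 for Eif4g2. Eif1a there was -0.0082 with DESeq2, -0.0088 with RLE and -0.058 with the 1 CPM filter, and Eif1ax -0.0066 with that filter. Eif4e was 0.013 without a filter and between -0.036 and 0.0085 without single libraries (above 0 without Crym KO IP 4).

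Without division by length, Eef1a2 made up 44.4% of its pair in Control IP, 39.3% in Control Input, 45.4% in Crym KO IP and 39.0% in Crym KO Input, Eif4a2 90.9%, 91.2%, 90.6% and 91.0%, and Eif5a2 41.5%, 43.3%, 40.9% and 42.9%. Scaling and filters act on all genes at once, and the cause of single shifts was not tested. Depth limits Eif4ebp3, tested on 133 reads in all.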
